A study of Macaca mulatta with 51 samples.

Results

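The change in gene expression of subcutaneous adipose tissue (AT) after FGF21 was withdrawn was measured in diet-induced obese (DIO) rhesus macaques. Washout biopsies were compared with those taken at the end of treatment. The libraries were chosen by tissue and time point, which gave 17 of the 51 labelled samples, 9 post-treatment and 8 washout. Of the 9 animals sampled post-treatment, 8 had a washout library too, and the post-treatment library of animal 20456 had no partner. All animals belonged to a cohort of 10 (5 males and 5 ovariectomized females) aged 11 to 22 years, which entered the study obese and non-diabetic on a diet rich in fat and sucrose. The post-treatment group had received native human FGF21 under the skin once a day for 12 weeks, at a dose that rose to 1000 µg/kg per day in 9 animals and was held at 300 in 1. The washout group was the same animals 16 weeks after the last dose. RNA of abdominal punch biopsies, which hold every cell type of the tissue, was sequenced as stranded mRNA libraries, and reads were assigned to rhesus genes that carry the identifiers of their human homologs. Animals left untreated over the same weeks were not analysed here, so the end of dosing and the passage of time cannot be told apart. The animals had lost body weight by the end of treatment and regained it during washout, so the end of dosing and the regain of weight cannot be told apart either.

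FGF21 is a hormone that acts through an FGF receptor, mainly FGFR1 in adipose tissue, and its co-receptor KLB, and it signals through the ERK cascade. White adipocytes make fatty acids and store them as triglyceride, take up lipoprotein lipid, and secrete leptin, whose level follows the size of the fat store. Adipose macrophages increase in obesity, and they can also increase while lipid is being released in weight loss, when they take up lipid and process it in lysosomes.

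At washout compared to post-treatment, 4731 of the 13367 genes tested (35.4%) were differentially expressed (DE), which here means a Benjamini-Hochberg adjusted p under 0.05 by edgeR's quasi-likelihood test and a size of the log2 fold change above 0.26. All log2 fold changes are washout minus post-treatment unless stated otherwise, and where a gene has a single value with an adjusted p that value is its log2 fold change. Levels are TMM-normalized counts on a common library scale (CPM), which can be compared between libraries but not between genes, and are given as the median of a group with its lowest and highest library in brackets. Of all genes tested, 17.6% (2352) were higher and 17.8% (2379) were lower. The counts of list members called are to be read against these shares. The median log2 fold change was 0.72 among the genes called higher and -0.57 among those called lower. A log2 fold change above 1 was reached by 727 of the genes called higher, and one below -1 by 538 of those called lower. With library size alone in place of TMM the median log2 fold change of all genes was 0.074 in place of -0.002, and 63.0% of 4729 DE genes were higher, against 49.7% of the 4731. Some 957 DE genes at a mean of 1 CPM or more rose in all 8 animals and 701 fell in all 8. The 9 post-treatment and 8 washout libraries had no overlap in CPM for 322 genes (2.41%), 233 of them higher and 89 lower at washout.

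**Figure D1:**
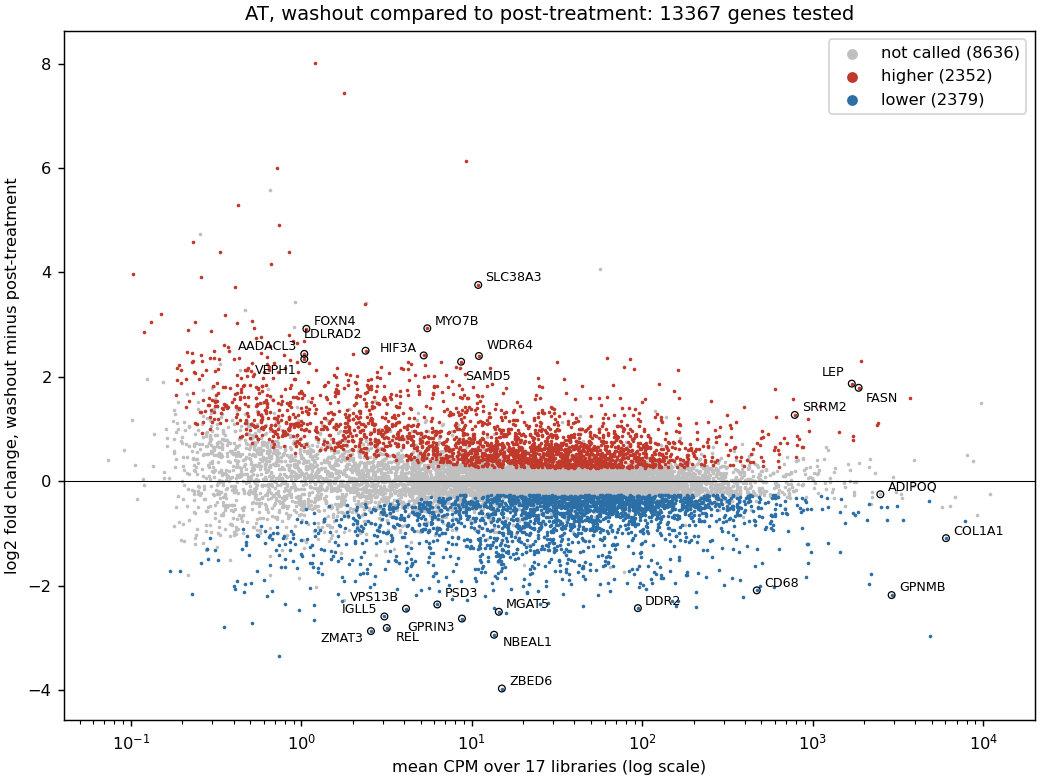
Log2 fold change at washout compared to post-treatment (y axis) against the mean CPM over the 17 libraries (x axis, log scale), with 1 point per gene, red for genes called higher and blue for genes called lower. Ringed and named are 19 of the 20 DE genes with the largest changes that went the same way in all 8 animals. Those 20 had a mean of 1 CPM or more, and 7 further genes are ringed and named. The 2352 red and 2379 blue points lie on either side of 8636 grey points.

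The tissue was checked against its defining markers, ADIPOQ, PLIN1, LEP and CIDEC. LEP rose (log2 fold change 1.87, edgeR adjusted p = 0.000731) and is described with the adipokines, and CIDEC is not reported here. ADIPOQ (ENSG00000181092), the gene of adiponectin, lay at a median of 2479.6 CPM (1469 to 4604) post-treatment and a median of 2168 CPM (1166 to 4328) at washout, and its change did not pass the test (log2 fold change -0.25, SE 0.22, edgeR adjusted p = 0.375). PLIN1, the coat protein of the lipid droplet, lay at a median of 1487 CPM (619 to 2120.1) and a median of 1889 CPM (1096 to 2687) and did not pass either, at 0.22 (edgeR adjusted p = 0.408). Of the 12 adipocyte markers tested, 2 were higher and 1 was lower. Their summed level was a median of 26009.5 CPM (15557 to 40025) post-treatment and a median of 26204 CPM (16052 to 47982) at washout, and rose in 4 of 8 animals. In bulk tissue, fewer cells of a type and less RNA per cell cannot be told apart.

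Libraries differed in ways that touch the results. Total counts ran from 15756491 to 22531878 per library. The number of genes with a count was higher at washout in 8 of 8 animals, by 238.1 ± 149.7 genes (SD, n = 8; exact sign-flip permutation test, two-sided p = 0.00781, the smallest that 8 pairs can give). Library identifiers fall into 3 number series whose meaning the labels do not give, and which were treated as possible batches. Post-treatment 7 libraries were in the last series and 2 in the middle one (animals 20456 and 23004), and at washout 4 were in the last, 3 in the middle (animals 20275, 22130 and 24849) and 1 in the first (animal 26292). In 3 animals (20261, 21189 and 21866) both libraries were in the last series, and in those 3 animals alone 1654 of 13495 genes (12.3%) were DE. With the series as a covariate in all animals there were 4394 DE genes. The direction was the same for 4731 of 4731 DE genes under the covariate and for 4701 of 4716 in the 3 animals. Both fits used libraries that also gave the DE calls, so they are not independent of those calls. Within its group a library stood apart from all others by Dixon's test on log2 CPM for 393 genes in the post-treatment library of animal 20275, 266 in the washout library of 26292 and 256 in that of 23004, against 22 to 97 genes in each of the other 14.

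The largest increases among DE genes at a mean of 1 CPM or more that rose in all 8 animals were led by SLC38A3 (ENSG00000188338), a transporter of glutamine. SLC38A3 lay at a median of 0.994 CPM (0.192 to 5.23) post-treatment and a median of 20.7 CPM (9.43 to 40.5) at washout, with no overlap (log2 fold change 3.76, SE 0.44, edgeR adjusted p = 1.21e-05). MYO7B, an unconventional myosin, lay at a median of 0.887 CPM (0.0962 to 4.04) and a median of 10.8 CPM (4.23 to 20.1), again without overlap (log2 fold change 2.93, SE 0.31, edgeR adjusted p = 4.16e-06). In the animal with the smallest change, 23004, they still rose by 1.73 and 1.96 in log2 CPM.

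HIF3A, a hypoxia-inducible factor subunit, rose from a median of 1.4 CPM (0.533 to 2.71) to a median of 8.6 CPM (3.36 to 22.9) without overlap (log2 fold change 2.41, SE 0.38, edgeR adjusted p = 0.000139). LDLRAD2 rose from a median of 0.474 CPM (0.0934 to 1.38) to a median of 3.71 CPM (2.49 to 7.19), also without overlap (log2 fold change 2.50, SE 0.25, edgeR adjusted p = 1.83e-06). Of the others, WDR64 and SAMD5 had medians of 2.29 and 2.07 CPM post-treatment and 15.7 and 16.2 CPM at washout, and FOXN4 (a forkhead transcription factor), AADACL3 and VEPH1 were at medians of 1, 2.01 and 1.53 CPM at washout. Their log2 fold changes were 2.40, 2.29, 2.92, 2.44 and 2.34 in that order. Post-treatment FOXN4 lay at 0 to 0.447 CPM, AADACL3 at 0.0481 to 1.14 CPM and VEPH1 at 0 to 1.32 CPM. The fold changes of FOXN4, AADACL3 and VEPH1 therefore rest on few counts. In animal 22130 AADACL3 went from 0.0481 to 0.11 CPM. Each of these 9 genes was DE with the identifier series as a covariate and in the 3 animals with both libraries in the last series. Those animals were among the ones used to choose the genes, so these fits are not independent of the choice.

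The largest decreases were led by ZBED6 (ENSG00000257315), a zinc finger factor derived from a DNA transposon. It lay at a median of 25.9 CPM (21.9 to 35.7) post-treatment and at a median of 1.3 CPM (0.84 to 8.03) at washout, without overlap (log2 fold change -3.97, SE 0.31, edgeR adjusted p = 2.53e-07). Of the 8 washout libraries, 7 lay between 0.84 and 1.76 CPM, and the highest, 8.03 CPM, was that of animal 26292, the 1 library in the first identifier series. NBEAL1, a BEACH-domain protein, fell from a median of 23.9 CPM (15.1 to 28.5) to a median of 2.8 CPM (1.79 to 5.34) without overlap (log2 fold change -2.94, SE 0.21, edgeR adjusted p = 5.1e-08).

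DDR2 (ENSG00000162733), a receptor tyrosine kinase for fibrillar collagen, lay at a median of 132 CPM (78 to 236) post-treatment, and 7 washout libraries lay between 16.9 and 24.4 CPM while that of animal 26292 was at 118 CPM (log2 fold change -2.43, SE 0.28, edgeR adjusted p = 1.07e-05). MGAT5, a Golgi enzyme that branches N-glycans, showed the same arrangement. It lay at a median of 23.4 CPM (13.1 to 28) post-treatment, 7 washout libraries were between 2.42 and 4.2 CPM, and that of 26292 was at 20.2 CPM (log2 fold change -2.50, SE 0.29, edgeR adjusted p = 9.01e-06). So did PSD3, at a median of 9.49 CPM (4.89 to 13.4) post-treatment and, at washout, 7.98 CPM in 26292 and 0.727 to 2.18 CPM in the other 7 (log2 fold change -2.36, SE 0.29, edgeR adjusted p = 1.62e-05). REL, an NF-κB subunit, fell from a median of 5.24 CPM (2.34 to 9.2) to a median of 0.469 CPM (0.251 to 3.24), with its highest washout value again in 26292 (log2 fold change -2.81, SE 0.36, edgeR adjusted p = 2.26e-05). The remaining decreases were ZMAT3 (a p53 target, -2.87), GPRIN3 (-2.63), VPS13B (a lipid transfer protein, -2.44) and IGLL5 (-2.59), an immunoglobulin lambda-like gene whose reads may be shared with other lambda genes. The washout library of 26292 had the highest washout level for 9 of the 10 decreases, and that animal had the smallest change for 8 of the 10.

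With the identifier series as a covariate the log2 fold changes were -4.52 for ZBED6, -2.79 for DDR2, -2.92 for MGAT5 and -2.69 for PSD3, and in the 3 last-series animals they were -4.21, -2.55, -2.73 and -2.53. The part of the identifier series in these decreases was not tested beyond those values, since 1 library made up the first series.

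**Figure D2:**
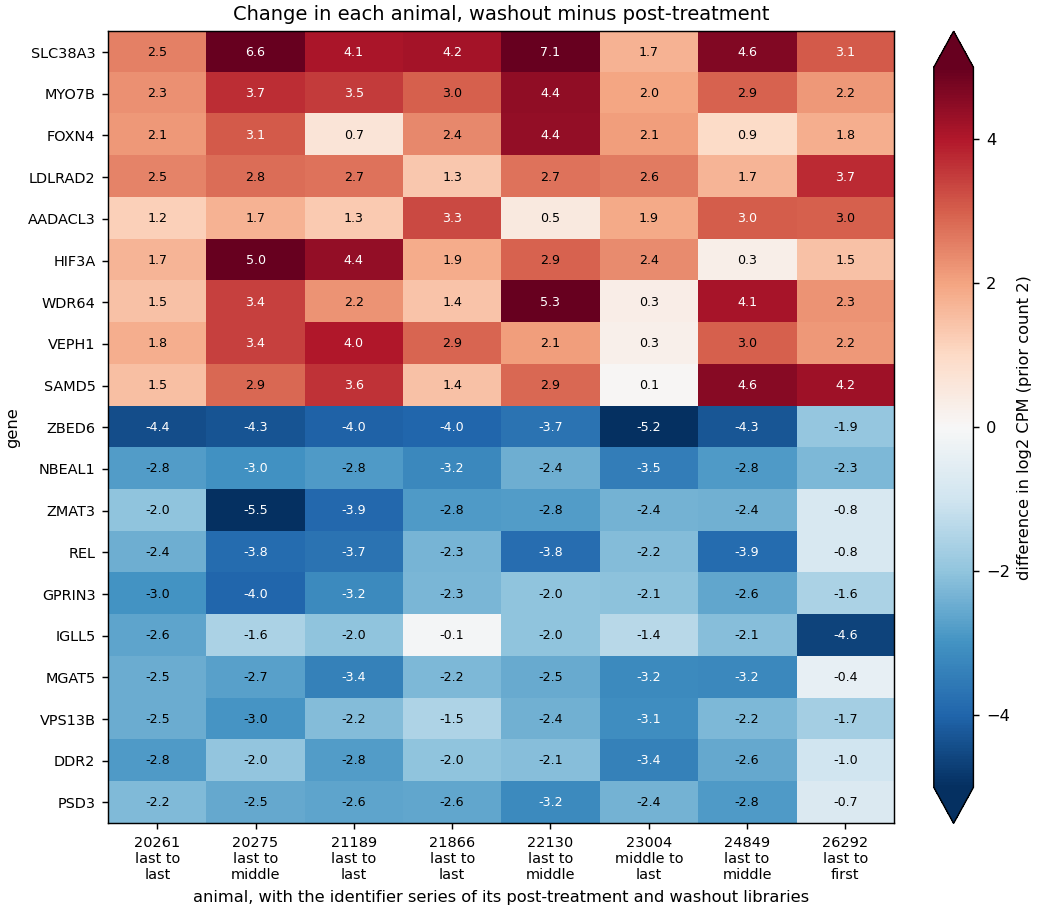
Difference in log2 CPM (washout minus post-treatment, prior count 2) in each of the 8 animals for 9 of the 10 largest increases and the 10 largest decreases, with the identifier series of the 2 libraries under each animal. Every cell of the upper 9 rows is above 0 and every cell of the lower 10 is below 0, and the column of animal 26292 holds the smallest decrease in 8 of the 10 (all but IGLL5 and VPS13B).

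Fatty acid synthesis genes were higher at washout. Of the 19 members tested, 14 rose and the other 5 were not called, with a median log2 fold change of 1.14 against -0.002 for all genes tested. FASN, fatty acid synthase, lay at a median of 654 CPM (126 to 2397) post-treatment and a median of 2502 CPM (1422 to 6570.5) at washout (log2 fold change 1.79, SE 0.46, edgeR adjusted p = 0.00543). It rose in 8 of 8 animals, but in 20261 and 23004, whose post-treatment levels were already 1543 and 2397 CPM, the washout levels were 1668 and 2536 CPM. THRSP, a lipogenic protein of white fat, moved from a median of 612 CPM (117 to 2607) to a median of 2910.5 CPM (1962 to 4725) and rose in 7 of 8 animals (log2 fold change 2.31, SE 0.51, edgeR adjusted p = 0.00204). PNPLA3, a lipid droplet protein induced by feeding, rose from a median of 4.45 CPM (0.691 to 22.9) to a median of 14.7 CPM (6.22 to 22.5) (log2 fold change 1.81, SE 0.35, edgeR adjusted p = 0.000741). ACACA, the carboxylase that makes malonyl-CoA, rose with a log2 fold change of 1.12 (edgeR adjusted p = 0.0178), a call that was lost without animal 22130. ELOVL6, a fatty acid elongase, was at 2.14 (edgeR adjusted p = 0.0422) and lost its call when any 1 of 6 animals was left out. SCD, the desaturase that makes oleate, lay at a median of 1694 CPM (1142 to 22588) and a median of 10862 CPM (2652 to 44198) and missed the threshold at 1.49 (edgeR adjusted p = 0.0581). It passed without animal 20261, 20456 or 23004 and with library size alone.

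The summed level of the fatty acid synthesis list differed between the identifier series, with ranges that overlapped. SCD made up much of it, reaching 22588 CPM in the post-treatment library of 23004 and 44198.5 CPM in the washout library of 22130. Within a time point each series held other animals, so series and animal cannot be told apart. Post-treatment the sum was 12854 and 34159.8 CPM in the 2 middle-series libraries and 4056 to 18793 CPM in the 7 of the last series. At washout it was 20624 to 67192 CPM in the 4 libraries of the first and middle series and 11268 to 24944 CPM in the 4 of the last. With the series as a covariate 11 of the 19 members rose (median 0.91). In the 3 animals with both libraries in the last series 1 rose (median 0.67), and FASN was at 1.10 (edgeR adjusted p = 0.279).

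Triglyceride assembly was mixed, with 6 of 16 members higher and 3 lower (5 without animal 22130). DGAT2, which adds the last acyl chain of triglyceride, rose from a median of 1642 CPM (484 to 3181) to a median of 3056 CPM (2432 to 4202) (log2 fold change 1.11, SE 0.29, edgeR adjusted p = 0.00623). LPIN1, the phosphatase that makes diacylglycerol, rose from a median of 334 CPM (179 to 905) to a median of 984 CPM (453 to 2156) (log2 fold change 1.58, SE 0.30, edgeR adjusted p = 0.000641). MOGAT1, an acyltransferase, had a median of 0.0481 CPM (0 to 0.372) post-treatment and a median of 0.832 CPM (0.3 to 4.56) at washout, so that its log2 fold change of 4.17 (edgeR adjusted p = 1.83e-05) rests on few counts. PCK1, the enzyme of glyceroneogenesis, went the other way, from a median of 156 CPM (50.5 to 346) to a median of 26.9 CPM (10.2 to 124), and fell in 8 of 8 animals (log2 fold change -1.94, SE 0.45, edgeR adjusted p = 0.00312). In the lipolysis list ADRA2A, the antilipolytic alpha-2 adrenergic receptor, rose from a median of 54.9 CPM (27.1 to 179.8) to a median of 163 CPM (101 to 284) in 8 of 8 animals (log2 fold change 1.28, SE 0.18, edgeR adjusted p = 5.53e-05). Of the 14 members tested 3 fell, against 2 with library size alone, 1 without animal 20261, 20275 or 21866 and none without animal 21189 or 26292. ADRA2A was the member that rose, and 2 rose without animal 23004 or 26292.

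Of 24 genes of the cholesterol synthesis list, 11 rose and 1 fell (list median 0.48). Without animal 22130, 6 rose, and without animal 24849, 7. IDI1, isopentenyl diphosphate isomerase, rose from a median of 44.9 CPM (32.4 to 117) to a median of 90.2 CPM (45.5 to 168) in 8 of 8 animals (log2 fold change 0.86, SE 0.23, edgeR adjusted p = 0.00689). LSS, lanosterol synthase, rose from a median of 21.5 CPM (12 to 35.8) to a median of 37.4 CPM (23.1 to 65.5) in 7 of 8 (log2 fold change 0.88, SE 0.20, edgeR adjusted p = 0.00284). With library size alone, or without animal 20275, 21866 or 22130, no member fell, and without animal 26292, 2 fell. In the 3 last-series animals 1 member rose, and IDI1 and LSS were at 0.20 (edgeR adjusted p = 0.473) and 0.68 (edgeR adjusted p = 0.224).

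Genes of lipid efflux and exchange moved the other way: 7 of 20 transport genes fell, and 1, SCARB1 (a high-density lipoprotein receptor, named here after its value was seen), rose by 0.53 (edgeR adjusted p = 0.0119) (2 rose without animal 23004). ABCG1, a cholesterol exporter, fell from a median of 225 CPM (91.2 to 425) to a median of 60.5 CPM (44.1 to 63.5) without overlap (log2 fold change -1.95, SE 0.21, edgeR adjusted p = 4.34e-06). ABCA1, its partner in efflux to high-density lipoprotein, fell from a median of 361 CPM (88.6 to 586) to a median of 122 CPM (101 to 222) in 8 of 8 animals (log2 fold change -1.32, SE 0.22, edgeR adjusted p = 0.000169). CETP, which exchanges lipids between lipoproteins, fell from a median of 91.9 CPM (18.2 to 201) to a median of 18 CPM (11 to 46.9) in 8 of 8 animals (log2 fold change -1.95, SE 0.27, edgeR adjusted p = 4.67e-05). These 3 exporters and exchangers were DE in the last-series animals as well, at -2.10, -1.48 and -2.22. ANGPTL4, an inhibitor of lipoprotein lipase, fell in 6 of 8 animals, at -1.11 (edgeR adjusted p = 0.0105). LPL itself lay at a median of 6089.5 CPM (4374 to 10422) and a median of 8373 CPM (4348 to 16436) and its change did not pass the test (log2 fold change 0.51, edgeR adjusted p = 0.0914), except without animal 23004, with library size alone and by DESeq2. The fatty acid transporter CD36 was at -0.09 (edgeR adjusted p = 0.653).

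In glycolysis 9 of 17 members rose and 1 fell, with a median of 0.37. HK2, the insulin-responsive hexokinase, rose from a median of 41.2 CPM (21 to 74.7) to a median of 76.7 CPM (42.4 to 103) in 8 of 8 animals (log2 fold change 0.78, SE 0.14, edgeR adjusted p = 0.000306), and LDHB, a lactate dehydrogenase subunit, rose by 0.69 (edgeR adjusted p = 0.00564). The decrease was that of HK3, a hexokinase of myeloid cells, which lay at a median of 109 CPM (31.7 to 235) and a median of 39.8 CPM (17.8 to 304); its call (log2 fold change -1.45, edgeR adjusted p = 0.027) was lost when any 1 of 6 animals was left out. In pyruvate metabolism and the TCA cycle 12 of 32 genes rose and 2 fell. CS, citrate synthase, rose by 0.47 (edgeR adjusted p = 0.00497) and PDHX, a pyruvate dehydrogenase component, by 0.71 (edgeR adjusted p = 0.00274). The decreases were ME2, at -0.61 (edgeR adjusted p = 0.0112), and PDK4, the kinase that switches off pyruvate dehydrogenase in fasting, which fell in 8 of 8 animals from a median of 519 CPM (198 to 590.4) to a median of 157 CPM (108 to 469) (log2 fold change -1.29, SE 0.20, edgeR adjusted p = 0.000116). In the 3 last-series animals 1 glycolysis gene and none of the TCA cycle genes rose, and PDK4 fell, at -1.76.

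Few genes of mitochondrial respiration and fatty acid oxidation were called. In the respiratory chain 5 of 67 members rose (median 0.10), led by NDUFB4 at 0.39 (edgeR adjusted p = 0.00866), and with library size alone the count was 21, without animal 23004 11, without 26292 9, without 20261 3, and without 22130 or 24849 2. Of the 67, 60 were fitted higher and 7 lower, while the mean change of the list was above 0 in 5 animals and below 0 in 3. In fatty acid oxidation 4 of 25 rose (1 without animal 22130 or 24849 and 2 without 20275 or 21866) and 1 fell. The one that fell was CPT1A, which admits fatty acids into mitochondria, from a median of 96.7 CPM (79.5 to 157) to a median of 62.2 CPM (49.7 to 79.4) without overlap (log2 fold change -0.80, SE 0.13, edgeR adjusted p = 0.000156), and ACADL, an acyl-CoA dehydrogenase, rose by 0.57 (edgeR adjusted p = 0.00327). Branched-chain amino acid catabolism had 3 members higher and 3 lower of 19. BCAT1, the cytosolic aminotransferase, fell from a median of 76.1 CPM (35 to 132) to a median of 30.6 CPM (17.7 to 63.8) in 8 of 8 animals (log2 fold change -1.22, SE 0.24, edgeR adjusted p = 0.000997), DBT, a subunit of the branched-chain keto acid dehydrogenase, fell, at -0.50 (edgeR adjusted p = 0.000964), and MCCC2, of the leucine pathway, rose by 0.61 (edgeR adjusted p = 6.34e-05). Mitochondrial ribosomal proteins had 1 higher and 2 lower of 69, and 6 were higher without animal 26292, 3 without 23004 and 2 without 21866.

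Among 16 genes of brown and beige fat 7 rose. NRG4, a growth factor secreted by brown fat, rose from a median of 1.54 CPM (0.905 to 3.78) to a median of 9.27 CPM (4.65 to 12.7) without overlap (log2 fold change 2.23, SE 0.27, edgeR adjusted p = 1.28e-05). The mitochondrial creatine kinases CKMT1B and CKMT2, which take part in creatine cycling, rose by 2.17 (edgeR adjusted p = 0.000252) and 1.35 (edgeR adjusted p = 0.000591), and ALPL, a phosphatase of the same cycle, rose from a median of 6.51 CPM (3.02 to 11.4) to a median of 15.5 CPM (3.99 to 30.9) (log2 fold change 1.35, SE 0.17, edgeR adjusted p = 1.93e-05). PPARGC1A, a coactivator of mitochondrial biogenesis, rose in 8 of 8 animals from a median of 2.83 CPM (2.31 to 6.11) to a median of 6.05 CPM (3.64 to 26.3), the highest value being that of animal 22130 (log2 fold change 1.02, SE 0.30, edgeR adjusted p = 0.0134). UCP1, the uncoupling protein that defines brown fat, lay at a median of 0.356 CPM (0 to 1.55) and a median of 0.744 CPM (0.0539 to 2.25), which is few counts in any library, and did not pass the test (log2 fold change 1.30, edgeR adjusted p = 0.0831). It passed without animal 20261 (log2 fold change 1.80, edgeR adjusted p = 0.0397), and its log2 fold change was -0.72 in the 3 last-series animals.

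LEP, the gene of leptin, rose in 8 of 8 animals, from a median of 635 CPM (164 to 2476) to a median of 2553 CPM (1378 to 4172) (log2 fold change 1.87, SE 0.36, edgeR adjusted p = 0.000731). Post-treatment the high value was that of animal 20456 and the low one that of 20275, and the groups overlapped. The increase was 1.55 with the series as a covariate and 1.38 in the last-series animals, DE in both. Of 14 adipokine genes, 2 rose and 5 fell. LCN2, lipocalin, fell, at -2.03 (edgeR adjusted p = 0.0163), a call lost without animal 20275, and ITLN1, omentin, rose by 1.03 (edgeR adjusted p = 0.0138) at a median of 1.23 CPM.

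Adipogenic transcription factors had 4 of 16 members lower, and 2 without animal 20261, 21189 or 26292. NR1H3, the oxysterol receptor whose targets include ABCA1 and ABCG1, fell from a median of 66.4 CPM (19.9 to 107) to a median of 33.5 CPM (22.4 to 44.6) (log2 fold change -1.02, SE 0.20, edgeR adjusted p = 0.000877), and CEBPD fell, at -0.76 (edgeR adjusted p = 0.00616). DLK1, an inhibitor of adipogenesis, was lower, at -2.01 (edgeR adjusted p = 0.0255), a call lost without any 1 of 5 animals. PPARG, the main factor of adipocyte identity, was the member that rose, by 0.49 (edgeR adjusted p = 0.0303), and lost the call without animal 20275, 21866, 22130 or 24849, while 2 members rose without 23004 and 3 without 26292. In the insulin signaling list 4 of 20 rose and 4 fell. The adaptors GRB14 and GRB10, which bind and restrain the insulin receptor, rose by 1.24 (edgeR adjusted p = 0.000226) and 0.76 (edgeR adjusted p = 0.000184), in 8 of 8 animals each, and PIK3CA, a catalytic subunit of the lipid kinase downstream of the receptor, fell, at -0.77 (edgeR adjusted p = 0.000277), in 8 of 8.

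For the FGF21 pathway, the ligand, the receptor and the co-receptor did not pass the test. KLB lay at a median of 52.4 CPM (22.1 to 92) and a median of 61.5 CPM (26.5 to 94.3) (log2 fold change 0.08, SE 0.27, edgeR adjusted p = 0.834) and FGFR1 at a median of 266 CPM (174 to 301) and a median of 253 CPM (211 to 295) (log2 fold change -0.02, SE 0.10, edgeR adjusted p = 0.891). Transcripts counted on FGF21 itself were at 0.285 CPM in the median washout library and 0.207 CPM in the median post-treatment one (log2 fold change -0.08, SE 0.59, edgeR adjusted p = 0.924). The signs of these 3 small differences depended on the method and on which animal was left out. FGFR2 rose from a median of 12.1 CPM (7.21 to 31.8) to a median of 36.6 CPM (20.5 to 53) in 7 of 8 animals (log2 fold change 1.32, SE 0.27, edgeR adjusted p = 0.00105). Of the ERK feedback genes, ETV5, an ERK-induced transcription factor, fell, at -0.65 (edgeR adjusted p = 0.00121) and SPRED1, an inhibitor of the RAS step, at -0.76 (edgeR adjusted p = 0.00348). DUSP6, the ERK phosphatase, was at -0.24 (edgeR adjusted p = 0.135), so that 2 of 17 members of the list were higher (1 without animal 21866 or 26292) and 4 lower. In either direction 35.3% of the list was called, against 35.4% of all genes tested.

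**Figure D3:**
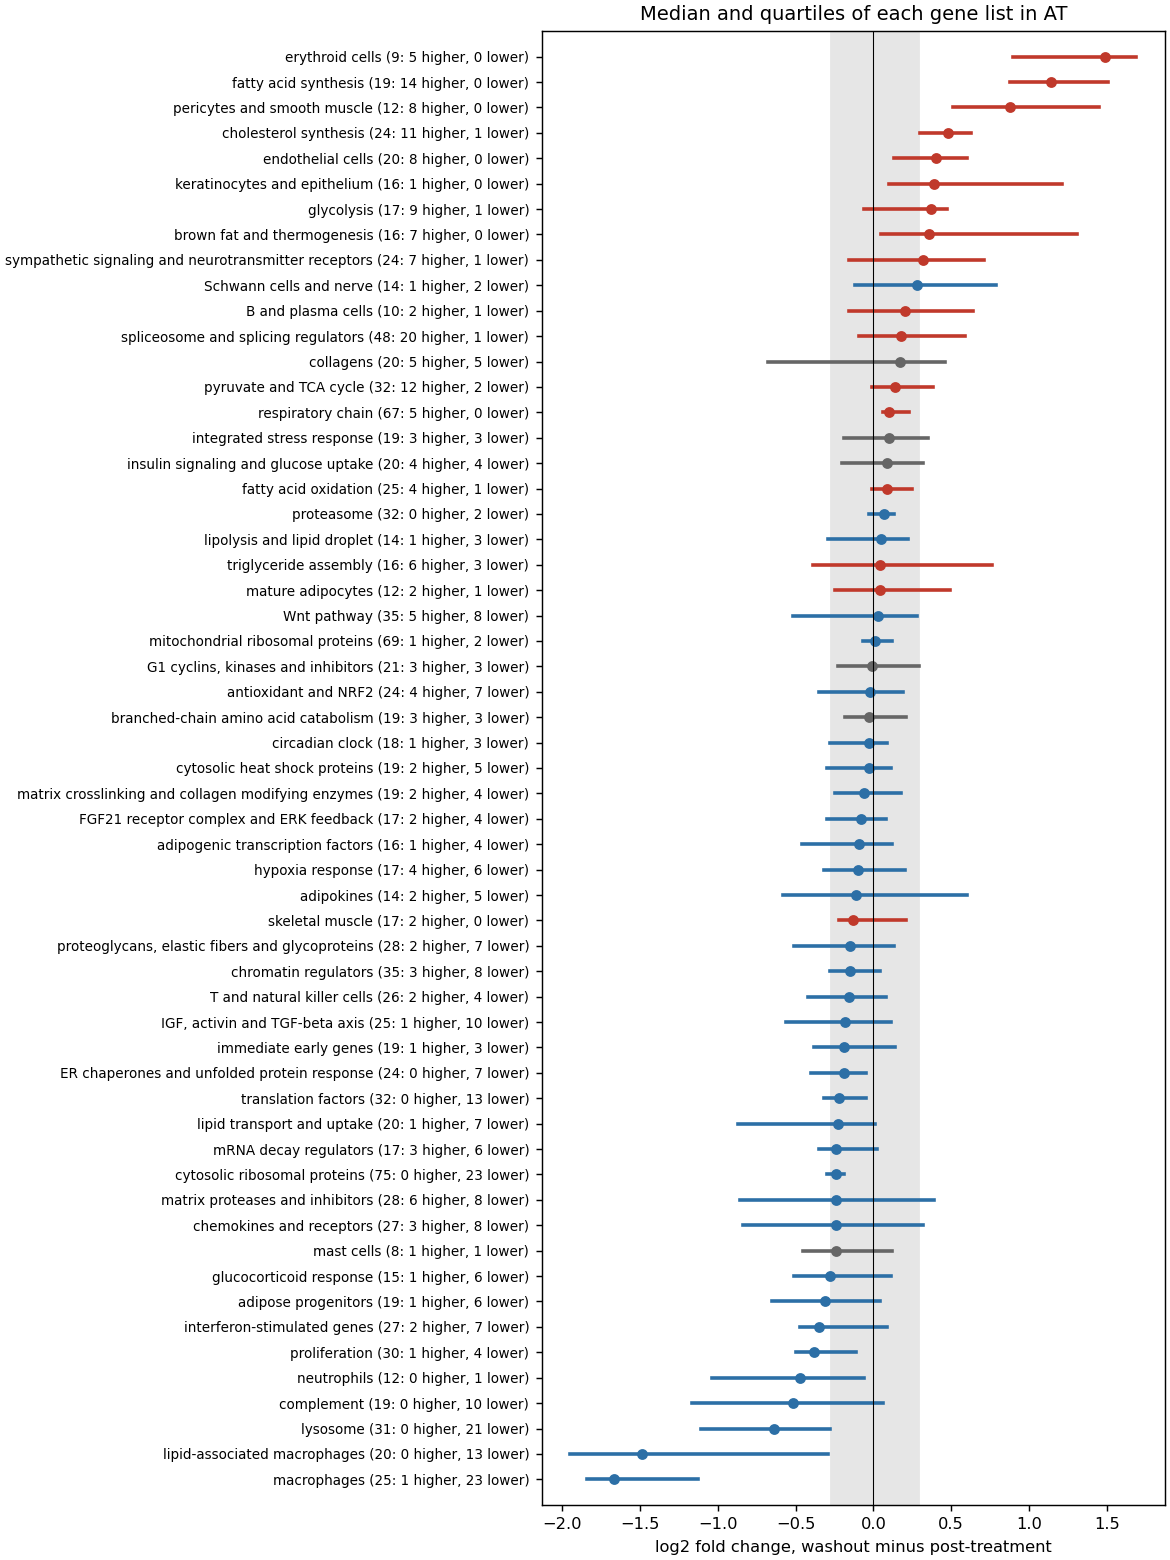
Median (point) and quartiles (line) of the log2 fold change at washout compared to post-treatment in 57 gene lists, with the number of members tested, called higher and called lower beside each name, in red where more members were higher, blue where more were lower and grey where the numbers are equal. The shaded band spans the quartiles of all 13367 genes (-0.27 to 0.29), and the macrophage lists lie farthest to the left while the erythroid and fatty acid synthesis lists lie farthest to the right.

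Macrophage genes fell at washout. Of 25 members tested, 23 were lower, with a median log2 fold change of -1.67, and 1, the scavenger receptor STAB1 that endothelium also makes (named after its value was seen), was higher at 1.0 (edgeR adjusted p = 0.00436). CD68, a lysosomal glycoprotein of macrophages, lay at a median of 631 CPM (217 to 1295) post-treatment and a median of 119 CPM (48.1 to 806) at washout (log2 fold change -2.09, SE 0.48, edgeR adjusted p = 0.00271). It fell in 7 of 8 animals and rose in 23004, from 381 to 806 CPM. MRC1, the mannose receptor of resident macrophages, fell in 8 of 8 animals from a median of 338 CPM (137 to 781) to a median of 80.3 CPM (43.4 to 251) (log2 fold change -1.84, SE 0.31, edgeR adjusted p = 0.00024). The complement subunits C1QB and C1QC, which macrophages secrete, fell in 8 of 8 animals, at -2.13 (edgeR adjusted p = 3.49e-05) and -2.06 (edgeR adjusted p = 2.23e-05). CD163 fell, at -1.02 (edgeR adjusted p = 0.000867) and MSR1, a scavenger receptor, at -2.41 (edgeR adjusted p = 0.00812).

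Over the macrophages list the summed level was a median of 5867 CPM (2302 to 12844) post-treatment. At washout it was 1128 to 3386 CPM in 7 libraries and 5546 CPM in that of animal 23004, which was the 1 animal in which the sum rose. The same number of members, 23, fell without that animal, 22 fell with the series as a covariate and 19 fell in the last-series animals.

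Genes of lipid-associated macrophages and lysosomes followed. In the first list 13 of 20 fell and none was called higher (median -1.49); its members LPL and CD36 are also adipocyte genes. GPNMB, a glycoprotein of lipid-loaded macrophages, lay at a median of 4094 CPM (1989 to 8402) and a median of 750.2 CPM (503 to 2663) (log2 fold change -2.18, SE 0.38, edgeR adjusted p = 0.000325). CHIT1, a chitinase of lipid-laden macrophages, fell from a median of 7523 CPM (1487 to 13369.8) to a median of 650.0 CPM (256 to 8541), the high washout value being that of animal 23004 (log2 fold change -2.97, SE 0.67, edgeR adjusted p = 0.00251). TREM2, a lipid-sensing receptor, fell, at -1.87 (edgeR adjusted p = 0.00552), ATP6V0D2, a proton pump subunit, at -2.43 (edgeR adjusted p = 0.0122) and MMP9, a gelatinase, at -2.29 (edgeR adjusted p = 0.0278), a call lost without animal 20275, 21189 or 22130. Of 31 lysosomal genes 21 fell. LIPA, the acid lipase that frees cholesterol and fatty acids in lysosomes, fell from a median of 1979 CPM (1043 to 9254) to a median of 532 CPM (238 to 2998) (log2 fold change -1.96, SE 0.51, edgeR adjusted p = 0.0061), and the proteases CTSB and CTSC fell, at -1.78 (edgeR adjusted p = 0.0025) and -1.89 (edgeR adjusted p = 0.000887). Each of these 8 genes was lower at washout in 7 animals and higher in animal 23004.

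Receptors and components of complement fell in 10 of 19 cases, and animal 23004 again went against the other 7 for C5AR1, C3AR1 and ITGB2. C5AR1 and C3AR1, the anaphylatoxin receptors, fell, at -1.94 (edgeR adjusted p = 0.000986) and -1.56 (edgeR adjusted p = 0.00349), the integrin chain ITGB2 at -1.98 (edgeR adjusted p = 0.00855), and C6, of the membrane attack complex, at -1.72 (edgeR adjusted p = 0.00262). Among 27 chemokines and receptors 8 fell (5 without animal 20275 or 21189) and 3 rose (5 without 20261 or 20275). The macrophage chemokine CCL18 fell, at -1.76 (edgeR adjusted p = 0.00627) and CCL15 at -1.29 (edgeR adjusted p = 0.00552), whereas CXCL1, a neutrophil attractant, rose from a median of 1.31 CPM (0.662 to 9.05) to a median of 9.23 CPM (1.1 to 25.5) in 7 of 8 animals (log2 fold change 1.71, SE 0.35, edgeR adjusted p = 0.00112). Interferon-stimulated genes had 7 lower (4 without animal 21189 or 24849) and 2 higher of 27, with IFI6 at -1.17 (edgeR adjusted p = 0.0184) and the guanylate-binding protein GBP2 at 1.21 (edgeR adjusted p = 0.00207).

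Lymphocyte genes were called in both directions. Of 26 T and natural killer cell genes 4 fell and 2 rose (1 without any 1 of 6 animals), against 17.8% and 17.6% of all genes. CD4, which macrophages also express, fell, at -1.71 (edgeR adjusted p = 0.000312), CD8A at -0.69 (edgeR adjusted p = 0.00164) and CD8B at -2.14 (edgeR adjusted p = 0.00596). The increases were those of CD6, at 0.53 (edgeR adjusted p = 0.00854), and ZAP70, at 0.60 (edgeR adjusted p = 0.0488), a call lost without any 1 of 7 animals; both were named after their values were seen. The summed level of the list was a median of 278 CPM (153 to 489.7) post-treatment and a median of 107 CPM (93.9 to 259.9) at washout, and was higher at washout in 1 animal, 23004. CD4 made up much of that sum, at 89.9 to 374.3 CPM post-treatment and 30.7 to 145.5 CPM at washout. The median log2 fold change of the list was -0.16, and 20 of the 26 members were not called. B and plasma cell genes had 2 higher of 10 (1 without any 1 of 6 animals) and 1 lower. Of 12 neutrophil genes 1 was lower, against none without animal 21189, 24849 or 26292 and 2 without 20275, 20456 or 23004. Of 8 mast cell genes 1 was higher and 1 lower. None was higher when any 1 of 6 animals was left out, and 2 were without 23004 or 26292.

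**Figure D4:**
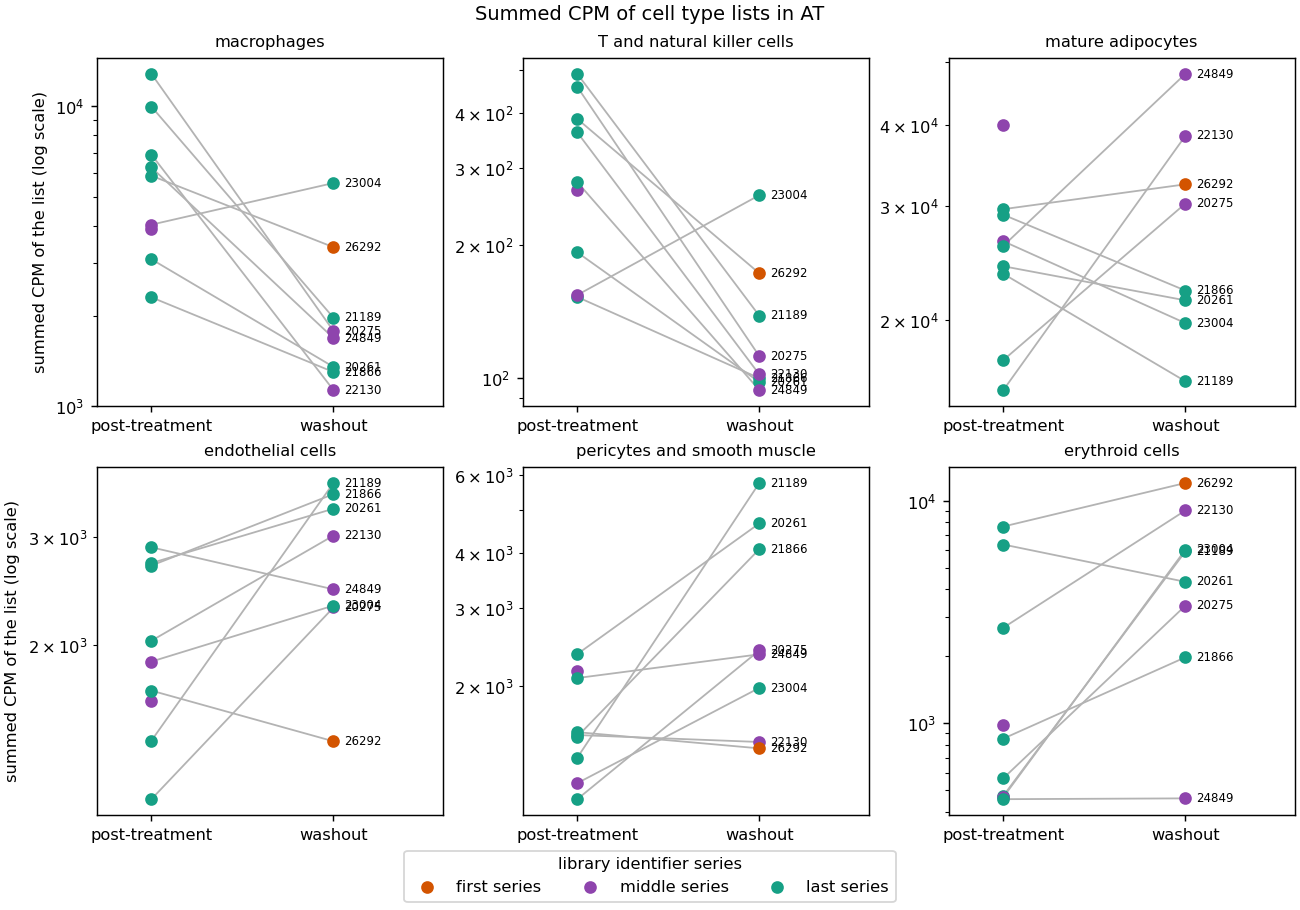
Summed CPM (log scale) of 6 cell type lists in each post-treatment and washout library, with lines joining the 2 libraries of an animal and colour giving the identifier series. The T and natural killer cell sum includes CD4, which macrophages also express. The macrophage sum falls in 7 of 8 animals and rises in 23004, the smooth muscle sum is highest at washout in animals 21189, 20261 and 21866, and the 4 highest adipocyte sums at washout are those of the first and middle series.

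Collagen genes split, with 5 of 20 higher (3 without animal 21189 or 21866) and 5 lower (3 without animal 22130). COL6A3, a chain of the collagen that surrounds adipocytes, fell from a median of 264 CPM (95.6 to 455) to a median of 74.4 CPM (29.4 to 220.3) in 8 of 8 animals (log2 fold change -1.79, SE 0.21, edgeR adjusted p = 1.07e-05). COL1A1, the main fibrillar collagen, fell from a median of 8065 CPM (4050.2 to 12774) to a median of 2969.8 CPM (1959 to 9241) in 7 of 8 (log2 fold change -1.09, SE 0.31, edgeR adjusted p = 0.0103). It was not DE with the series as a covariate (-0.84, edgeR adjusted p = 0.0712) or in the last-series animals (-0.32, adjusted p = 0.661). COL3A1 did not pass at -0.65 (edgeR adjusted p = 0.0766), except without animal 21189 and by DESeq2. COL27A1 rose in 8 of 8 animals from a median of 6.57 CPM (3.01 to 17.2) to a median of 20.3 CPM (13.7 to 30.3) (log2 fold change 1.39, SE 0.22, edgeR adjusted p = 0.000152).

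Matrix proteases and inhibitors had 6 higher and 8 lower of 28. CPXM1, a carboxypeptidase-like protein that takes part in adipogenesis, fell from a median of 124 CPM (64 to 179.8) to a median of 48.9 CPM (24.3 to 68.1) in 8 of 8 animals (log2 fold change -1.38, SE 0.16, edgeR adjusted p = 1.08e-05). MMP2, a gelatinase of stromal cells, fell, at -0.75 (edgeR adjusted p = 0.000393) in 8 of 8. ADAMTS10, which supports fibrillin microfibrils, rose from a median of 25.2 CPM (11.6 to 32.8) to a median of 87.1 CPM (42.1 to 101) without overlap (log2 fold change 1.59, SE 0.21, edgeR adjusted p = 2.59e-05). ADAMTS12 fell from a median of 23.3 CPM (19.1 to 71.7) to a median of 5.79 CPM (3.25 to 41.4), the high washout value being that of animal 26292 (log2 fold change -1.97, SE 0.22, edgeR adjusted p = 8.36e-06). Crosslinking enzymes had 2 higher and 4 lower (1 without animal 22130 and 2 without 26292) of 19, and LOXL2, a lysyl oxidase, rose by 1.02 (edgeR adjusted p = 0.000101). Among 28 proteoglycans, elastic fiber proteins and glycoproteins 7 fell (3 without animal 22130 or 24849 and 4 without 26292) and 2 rose. MFAP2, a microfibril protein, fell, at -1.21 (edgeR adjusted p = 1.39e-05) and OGN, osteoglycin, at -0.95 (edgeR adjusted p = 0.00065), both in 8 of 8 animals. FMOD, fibromodulin, rose from a median of 11.4 CPM (5.04 to 31.7) to a median of 52.7 CPM (9.44 to 228) (log2 fold change 1.82, SE 0.42, edgeR adjusted p = 0.00261).

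Adipose progenitor markers had 6 lower (3 without animal 20275 or 21866) and 1 higher (2 without 26292) of 19. PDGFRA, the receptor that marks these cells, fell in 8 of 8 animals from a median of 92.7 CPM (44.4 to 116) to a median of 24.7 CPM (15.1 to 108) (log2 fold change -1.55, SE 0.28, edgeR adjusted p = 0.000453). DPP4, of the earliest progenitors, fell, at -0.76 (edgeR adjusted p = 0.00876), and SFRP4, a secreted Wnt antagonist, at -1.24 (edgeR adjusted p = 0.0173). F3, tissue factor, which marks a regulatory stromal population, was the member that rose, from a median of 18.9 CPM (13.9 to 32.4) to a median of 46.4 CPM (25.4 to 87.4) (log2 fold change 1.25, SE 0.15, edgeR adjusted p = 1.27e-05). In the IGF, activin and TGF-beta list 10 of 25 fell. IGFBP3, the main binding protein of the insulin-like growth factors, fell from a median of 1762 CPM (712 to 2850.4) to a median of 741 CPM (533 to 996) (log2 fold change -1.19, SE 0.18, edgeR adjusted p = 0.000105), and GDF15, a stress hormone, fell, at -1.59 (edgeR adjusted p = 0.0144), a call lost without animal 21189. INHBA, the activin A subunit, was the member that rose (2 rose without animal 20275 or 24849 and 3 without 22130), from a median of 4.87 CPM (3.55 to 13.8) to a median of 14.3 CPM (9.08 to 32.8) in 8 of 8 animals (log2 fold change 1.40, SE 0.22, edgeR adjusted p = 9.99e-05).

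Of 20 endothelial genes 8 rose and none was called lower (median 0.40). CDH5, the junction cadherin of endothelium, rose from a median of 126 CPM (70.8 to 228) to a median of 239.7 CPM (117 to 309.6) (log2 fold change 0.64, SE 0.15, edgeR adjusted p = 0.00355). EGFL7 and ROBO4, which act in vessel growth and stability, rose by 0.86 (edgeR adjusted p = 0.000846) and 0.88 (edgeR adjusted p = 0.00214), and NOS3, endothelial nitric oxide synthase, by 0.67 (edgeR adjusted p = 0.0154), a call lost without animal 21866; all 4 rose in 8 of 8 animals. VEGFA, the vascular growth factor, rose from a median of 48.7 CPM (27.3 to 94.6) to a median of 102 CPM (69.2 to 211) in 7 of 8 (log2 fold change 1.07, SE 0.18, edgeR adjusted p = 0.000214). The endothelial sum was a median of 1880.0 CPM (1124 to 2882) post-treatment and a median of 2737 CPM (1396 to 3665) at washout, higher in 6 of 8 animals.

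Pericyte and smooth muscle genes had 8 of 12 higher, and 4 without animal 21866. ACTG2, a smooth muscle actin, lay at a median of 16.1 CPM (3.6 to 53.1) post-treatment, at 196 to 486 CPM in the washout libraries of 20261, 21189 and 21866, and at 2.36 to 88.4 CPM in the other 5 (log2 fold change 2.19, SE 0.60, edgeR adjusted p = 0.00867). DES and CNN1, desmin and calponin, rose by 2.15 (edgeR adjusted p = 0.025) and 1.98 (edgeR adjusted p = 0.028), with calls lost when single animals were left out (4 of 9 for DES and 3 of 9 for CNN1). Erythroid genes had 5 of 9 higher, against 1 without animal 21189, 2 without 22130 or 23004 and 3 without 21866. HBB, beta globin, lay at a median of 847 CPM (452 to 7614) and a median of 5063 CPM (454 to 11917) (log2 fold change 1.59, edgeR adjusted p = 0.045), and ALAS2, of heme synthesis, was at 1.80 (edgeR adjusted p = 0.025). The erythroid sum was a median of 852 CPM (455 to 7649.5) post-treatment and a median of 5114 CPM (459 to 12003) at washout. The HBB call was lost without any 1 of 5 animals and the ALAS2 call without animal 21189 or 23004, and the part of blood in the biopsies in the other results was not tested.

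Of the muscle, epithelial and nerve lists 11.8%, 6.25% and 21.4% were called, against 35.4% of all genes tested. The epithelial sum was a median of 19 CPM (4.79 to 105.8) post-treatment and a median of 17.1 CPM (7.67 to 124.9) at washout. The nerve sum was a median of 397.1 CPM (249.5 to 532.9) and a median of 378.8 CPM (235.9 to 478.3). Skeletal muscle genes had 2 of 17 higher (1 without any 1 of 5 animals), and their sum was a median of 143 CPM (85.1 to 206) post-treatment and a median of 139 CPM (86.3 to 166) at washout. Of 16 epithelial genes 1 was higher, EPCAM, which lay at a median of 0 CPM (0 to 0.199) and a median of 0.166 CPM (0.0582 to 4.09), few counts in most libraries. EPCAM was not among the genes tested without animal 21189, 21866 or 23004; no member was higher without 21189 or 21866, and 2 were without 20275 or 23004. Schwann cell and nerve genes had 1 higher and 2 lower of 14, with MBP, myelin basic protein, at -1.41 (edgeR adjusted p = 0.00104). The median log2 fold change of this list was 0.28, with 10 of the 14 members fitted higher and 4 fitted lower. MBP rose in animal 23004, from 53.8 to 61.3 CPM. Without single animals the counts of the nerve list were 0 to 3 higher and 1 to 2 lower.

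Of 48 splicing genes 20 rose and 1, HNRNPU (named after its value was seen), fell, at -0.36 (edgeR adjusted p = 0.00463). Without any 1 animal 2 or 3 members fell. SRRM2, a scaffold of nuclear speckles, lay at a median of 421 CPM (332 to 785) post-treatment and a median of 1154 CPM (918 to 1349.5) at washout without overlap (log2 fold change 1.27, SE 0.14, edgeR adjusted p = 6.41e-06). SNRNP70, the U1 snRNP subunit, rose from a median of 75 CPM (64.3 to 109.5) to a median of 187 CPM (142 to 214) without overlap (log2 fold change 1.18, SE 0.14, edgeR adjusted p = 9.73e-06). LUC7L3 and PNISR, other nuclear speckle proteins, rose by 1.21 (edgeR adjusted p = 4.16e-05) and 1.13 (edgeR adjusted p = 4.3e-05) in 8 of 8 animals, also without overlap. In the last-series animals 13 members rose, SRRM2 by 1.58.

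Decreases in translation genes were small. Of 75 cytosolic ribosomal proteins 23 were lower (median -0.24), but 6 were with library size alone, 5 without animal 26292, 10 without animal 23004 or 24849 and none in the last-series animals. All 75 were fitted lower, and the mean change of the list was below 0 in 8 of 8 animals. The list median was -0.16 with library size alone and -0.10 in the last-series animals. RPL4 fell from a median of 985 CPM (884 to 1329.6) to a median of 767 CPM (604 to 883) without overlap (log2 fold change -0.40, SE 0.11, edgeR adjusted p = 0.0102). Translation factors had 13 of 32 lower, against 5 with library size alone and 7 without animal 26292, 8 without 24849, and none in the last-series animals. Of the 32, 25 were fitted lower and 7 higher. PABPC1, the poly(A)-binding protein, fell from a median of 402 CPM (339 to 702) to a median of 279 CPM (201 to 335) without overlap (log2 fold change -0.58, SE 0.10, edgeR adjusted p = 0.000304), EIF4B at -0.53 (edgeR adjusted p = 0.000488) and EEF1A1 at -0.47 (edgeR adjusted p = 0.00964), all in 8 of 8 animals.

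Chromatin regulators had 8 lower and 3 higher of 35. KDM5A, a histone H3 lysine demethylase, fell from a median of 32.8 CPM (24.2 to 39.4) to a median of 9.96 CPM (8.96 to 16.7) without overlap (log2 fold change -1.62, SE 0.13, edgeR adjusted p = 2.53e-07). NCOR1, a nuclear receptor corepressor, fell, at -0.76 (edgeR adjusted p = 0.0007) and ATRX, a chromatin remodeller, at -0.65 (edgeR adjusted p = 0.000451), while MED12, a Mediator subunit, rose by 0.53 (edgeR adjusted p = 0.00202). In mRNA decay 6 of 17 fell and 3 rose. The paralogs RC3H2 and RC3H1, which bind stem-loops in inflammatory transcripts, went in opposite directions. RC3H2 fell from a median of 20.4 CPM (12.9 to 26) to a median of 4.94 CPM (3.34 to 13.2) (log2 fold change -1.95, SE 0.18, edgeR adjusted p = 1.28e-06), with the high washout value in animal 26292, and RC3H1 rose from a median of 44.8 CPM (27 to 66.1) to a median of 63.4 CPM (48.6 to 75) (log2 fold change 0.51, SE 0.13, edgeR adjusted p = 0.00537). CNOT1, the deadenylase scaffold, fell, at -0.45 (edgeR adjusted p = 0.000559) and TNRC6B, of microRNA silencing, rose by 0.78 (edgeR adjusted p = 1.65e-05). In the proteasome list 2 of 32 fell, DDI2, a protease that activates proteasome gene expression, among them at -1.88 (edgeR adjusted p = 6.33e-06). Without animal 21189 or 26292, 1 fell, and 2 rose without 26292.

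Stress lists were mixed, and 35.4% of all genes tested were called in either direction. The shares called were 29.2% for the ER list, 31.6% for the integrated stress response, 36.8% for heat shock and 45.8% for antioxidant genes. ER chaperone and unfolded protein response genes had 7 of 24 lower, with EDEM1, of ER-associated degradation, at -0.83 (edgeR adjusted p = 0.000369) and the sensor ATF6 at -0.56 (edgeR adjusted p = 8.6e-05). In the integrated stress response 3 rose (5 without animal 26292) and 3 fell of 19: ATF5 rose by 1.01 (edgeR adjusted p = 0.000923) and ASNS, asparagine synthetase, by 0.72 (edgeR adjusted p = 0.00129), and SLC7A11, the cystine transporter, fell, at -0.99 (edgeR adjusted p = 0.0146). Cytosolic heat shock proteins had 5 lower and 2 higher of 19, against 2 lower with library size alone, and 1 higher without any 1 of 4 animals and none without 24849, with HSPA1A at -0.78 (edgeR adjusted p = 0.00284) and HSPH1 at -0.61 (edgeR adjusted p = 0.0105). Of 24 antioxidant genes 7 fell (4 without animal 20275, 21189 or 22130) and 4 rose. The mitochondrial SOD2 fell, at -0.89 (edgeR adjusted p = 0.00465) and the extracellular SOD3 rose by 0.74 (edgeR adjusted p = 0.00757), while the ferritin chains FTH1 and FTL fell, at -0.79 (edgeR adjusted p = 0.0109) and -0.75 (edgeR adjusted p = 0.00379).

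Hypoxia response genes had 4 higher and 6 lower of 17, and none was called lower with library size alone. Without animal 20275, 1 was lower, without 26292, 3, and without 21189, 21866, 22130 or 24849, 2. The oxygen sensor EGLN3 rose by 0.69 (edgeR adjusted p = 0.00105) and ANKRD37 by 0.72 (edgeR adjusted p = 0.00506), both in 8 of 8 animals. Glucocorticoid response genes had 6 of 15 lower (3 without animal 21189 or 21866), including FKBP5, the receptor's co-chaperone, at -0.69 (edgeR adjusted p = 0.0184), and 1 higher, TAT, which had no count in most libraries and was not among the genes tested without animal 21189 or 23004. Of 18 clock genes 3 fell and 1 rose (none without animal 21189 and 2 without 20275), with the repressor NR1D2 at -0.64 (edgeR adjusted p = 0.00244) and CLOCK at -0.43 (edgeR adjusted p = 0.00482). Immediate early genes had 3 lower and 1 higher of 19. The lower count was 1 without animal 21189 or 22130 and 5 without 23004, and the higher one 3 without 20275 and 0 without 20261, 21189, 23004 or 26292. ATF3 was at -1.73 (edgeR adjusted p = 0.0268), a call lost without any 1 of 4 animals. Of the hypoxia, glucocorticoid, clock and immediate early lists 58.8%, 46.7%, 22.2% and 21.1% were called, against 35.4% of all genes tested.

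In the Wnt pathway 8 of 35 genes fell (5 without animal 23004) and 5 rose (3 without animal 21189 or 21866). LRP6, the Wnt co-receptor, fell in 8 of 8 animals from a median of 67.9 CPM (44.9 to 124) to a median of 19.8 CPM (13.9 to 67.8) (log2 fold change -1.70, SE 0.27, edgeR adjusted p = 0.000124). The antagonists DKK1 and RNF43 rose, DKK1 from a median of 4.45 CPM (2.26 to 14.8) to a median of 12.5 CPM (3.13 to 27.7) (log2 fold change 1.14, SE 0.25, edgeR adjusted p = 0.00213) and RNF43 from a median of 0.0509 CPM (0 to 0.199) to a median of 0.471 CPM (0.0501 to 1.08), at few counts. Sympathetic and neurotransmitter receptor genes had 7 of 24 higher and 1 lower (none without animal 24849 and 2 without 20456), with ADRA2C, a second alpha-2 receptor, at 1.61 (edgeR adjusted p = 0.00569) and NPR3, the natriuretic peptide clearance receptor, at 1.23 (edgeR adjusted p = 0.00893), from a median of 257 CPM (143 to 956) to a median of 915 CPM (306 to 1192). Genes of the G1 phase had 3 higher and 3 lower of 21: CDKN2C, a cyclin-dependent kinase inhibitor, rose by 0.81 (edgeR adjusted p = 0.00373), CCND2, a cyclin, by 0.67 (edgeR adjusted p = 0.00193), and RBL1, a pocket protein, fell, at -0.68 (edgeR adjusted p = 0.000173). Proliferation genes had 4 lower (7 without animal 23004) and 1 higher (2 without 20275) of 30, with CENPF, of the kinetochore, at -1.27 (edgeR adjusted p = 0.00479) and the mitotic kinase PLK1 at 0.81 (edgeR adjusted p = 0.00608). Members called either way were 37.1% of the Wnt list and 33.3% of the sympathetic list. They were 28.6% of the G1 list and 16.7% of the proliferation list, against 35.4% of all genes tested.

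Pre-treatment levels of the same genes, from 10 AT libraries, place these changes on a longer scale. The comparison of washout with pre-treatment shares the washout libraries with the comparison above, so its values are given side by side and without counts. LEP had a pre-treatment median of 2763 CPM, against 635 post-treatment and 2553 at washout, and its log2 fold change of washout minus pre-treatment was -0.06. For CETP the 3 medians were 21.7, 91.9 and 18 CPM (washout minus pre-treatment 0.04). DGAT2, ADRA2A, INHBA and CPXM1 had washout minus pre-treatment values of -0.03, -0.01, -0.01 and 0.15, none of them DE.

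Other genes at washout lay away from both earlier time points. ZBED6 had medians of 29.3 CPM pre-treatment, 25.9 post-treatment and 1.3 at washout (washout minus pre-treatment -4.02). DDR2 had 172, 132 and 20.2 CPM (-2.74), LRP6 89.5, 67.9 and 19.8 CPM (-1.89), and KDM5A 30.5, 32.8 and 9.96 CPM (-1.59). SRRM2 was higher than at both, with 413, 421 and 1154 CPM (1.27), as were SNRNP70 (1.08 against pre-treatment) and ADAMTS10 (1.26). MRC1 and C1QB were below their pre-treatment levels, at -1.17 and -1.16, while CD68, at -0.92, and GPNMB, at -0.78, did not pass that test. ZBED6, DDR2, LRP6, KDM5A, SRRM2, SNRNP70, ADAMTS10, MRC1 and C1QB were DE against pre-treatment in edgeR's quasi-likelihood test.

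**Figure D5:**
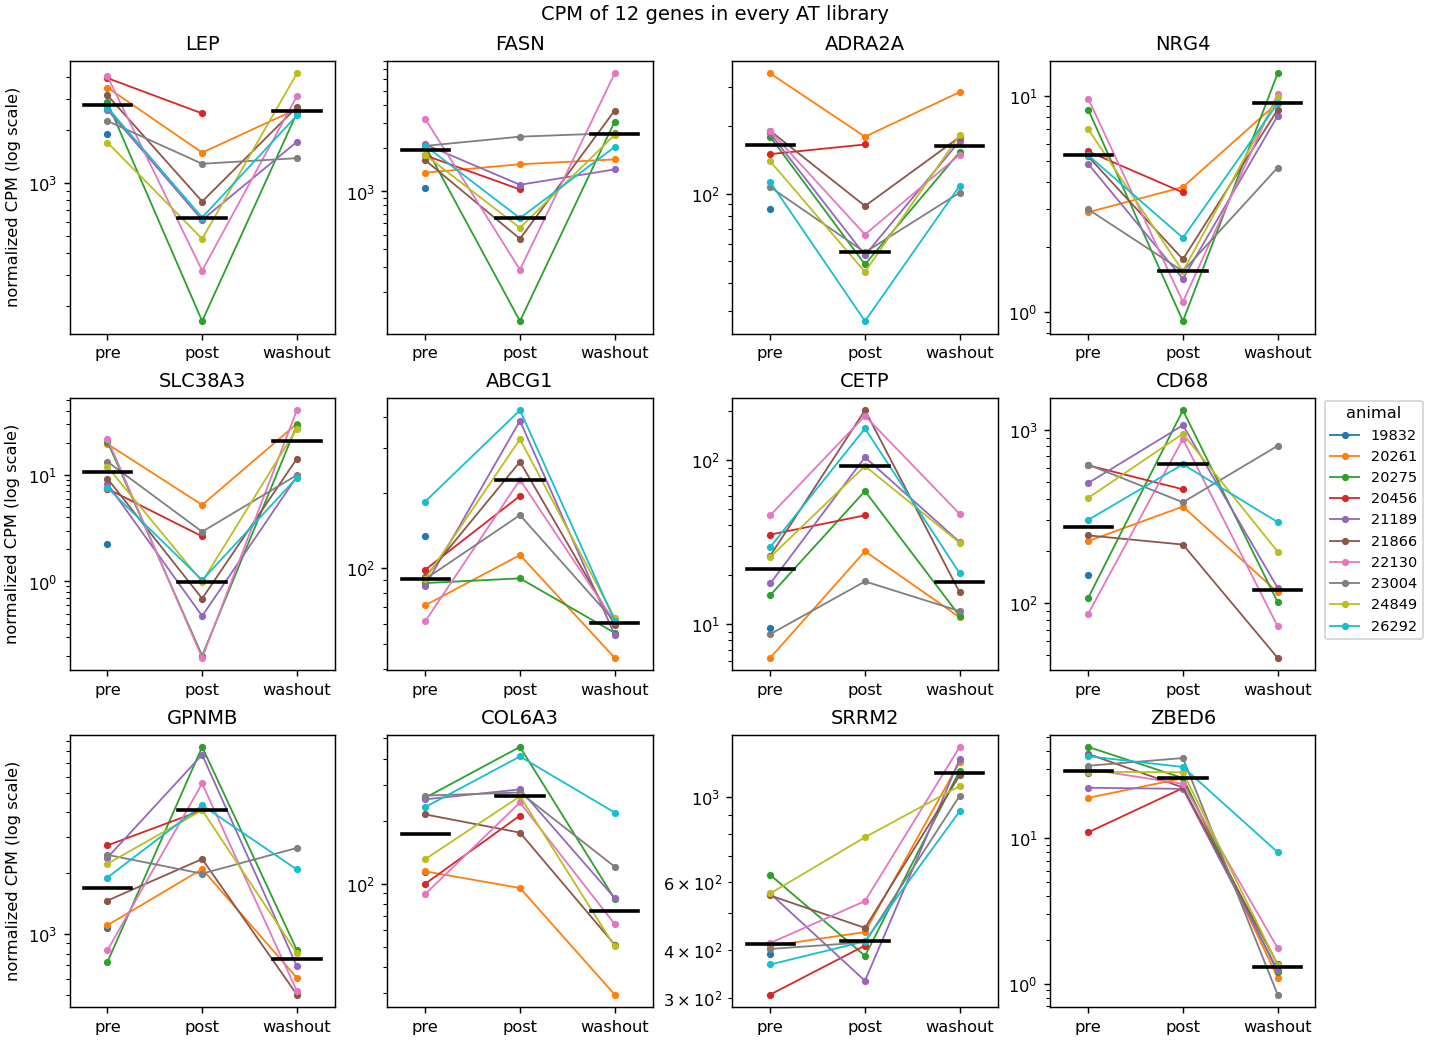
CPM (log scale) of 12 genes in every AT library pre-treatment, post-treatment and at washout, with a line for each animal and a black bar at the median of each time point. LEP, FASN, ADRA2A, NRG4 and SLC38A3 dip post-treatment and rise at washout, ABCG1, CETP, CD68, GPNMB and COL6A3 peak post-treatment, and SRRM2 and ZBED6 are near level until washout, when SRRM2 rises and ZBED6 falls.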

How the data were processed

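RNA of AT biopsies was sequenced as stranded poly(A) libraries. The submitters' processing notes name FastQC, STAR and SAMtools, and the reads were aligned to the rhesus genome assembly MacaM. The authors deposited raw counts per gene that were not normalized; the counting tool is not given in the sources used here. Entries carry human homolog identifiers. Of 16103 entries, 70 repeats of a gene were dropped, which left 16033 genes. Of 51 labelled samples 48 had counts, and the 3 others were not analysed here.

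The 27 AT libraries of the 3 time points (10 pre-treatment, 9 post-treatment and 8 washout) were fitted together with time point and animal as terms, because animals were sampled repeatedly. Same-animal libraries deviated together from their group means (median r = 0.223 over 8 pairs, -0.125 to 0.511, against -0.0251 over 64 pairs of different animals). Genes were kept when 10% or more of the libraries held 0.5 CPM or more, scaled by TMM, and tested with edgeR 4.0.16 (R 4.3.3; robust quasi-likelihood, two-sided, Benjamini-Hochberg). The threshold for a call was 0.05 for the adjusted p with 0.26 for the size of the log2 fold change. Log2 CPM of single libraries used a prior count of 2, which did not enter the fitted log2 fold changes. Tables and figures were made with Python 3.11.15. The biological coefficient of variation was 0.248. On simulated counts of 13198 genes, 192 of 200 genes changed by 1.5 on the log2 scale were called, and 6 others. The simulated counts held no differences between animals or identifier series, and genes were raised and lowered in equal numbers. That simulation therefore cannot give the share of false calls in these data.

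The 57 gene lists held 1483 genes, of which 1311 were tested and 146 had no row. Genes were named by rule. DE genes at a mean of 1 CPM or more that changed alike in all 8 animals gave the 10 largest increases and decreases. Up to 4 called members of each list by size of change were added, with marker genes set for each tissue or pathway. The libraries, lists and rule were chosen with earlier results of these data known, and 5 genes outside the rule were named after their values were seen. Some genes the rule names are not reported here. List counts and medians were described without a test. Alternatives were other scalings, filters and tests (DESeq2 1.42.0, limma 3.58.1), no animal term, paired libraries, the library identifier series, and each animal left out.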

Additional observations from a re-analysis of the deposited data

Results flagged for a closer look

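Within the 9 post-treatment or 8 washout libraries, the highest or lowest library of a named gene stood apart from the rest by Dixon's test on log2 CPM in 35 of 366 sets (9.56%). Normally distributed log2 CPM would give about 1 in 20. The named genes were chosen from these same libraries, so the 2 shares are not a test. Of the 35, 11 were the washout library of animal 26292, the 1 library with an identifier of the first series. In that library ZBED6 was at 8.03 CPM (0.84 to 1.76 in the other 7), MGAT5 at 20.2 (2.42 to 4.2), DDR2 at 118.3 (16.9 to 24.4), PSD3 at 7.98 (0.727 to 2.18), ADAMTS12 at 41.4 (3.25 to 9.22), RC3H2 at 13.2 (3.34 to 5.95) and DDI2 at 5.24 (1.26 to 1.8). It was also high for ABCA1 at 221.6 CPM, ATF6 at 94.4 and RBL1 at 17.2, and low for ROBO4 at 47.7, against 100.6 to 155.8 in the other 7. Over all genes tested this library stood apart for 266 (1.99%), of which 99 were called lower and 58 called higher at washout. Whether the identifier series has a part in these values was not tested, since 1 library made up the first series.

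The washout library of animal 23004 was the high one for HK3 at 304.0 CPM (17.8 to 56.2 in the other 7) and for the lysosomal protease CTSB at 4280.7 (502.6 to 1081.7), and the low one for NRG4 at 4.65 (8.08 to 12.7). Over all genes it stood apart for 256 (1.92%), 105 of them called lower at washout.

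The post-treatment library of animal 20275 was low for PLIN1 at 618.6 CPM (1406.7 to 2120.1 in the other 8) and LDHB at 19.0, and high for PABPC1 at 702.0, LCN2 at 24.5 (0.466 to 3.02) and ATF3 at 226.1 (18.1 to 65.1). Over all genes it stood apart for 393 (2.94%). In the other post-treatment libraries, that of 21866 was low for MGAT5 at 13.1 CPM and PSD3 at 4.89 and high for MOGAT1 at 0.372, and that of 24849 was low for CEBPD at 11.4 and high for MED12 at 103.5. PDK4 was low at 198.1 CPM and TAT high at 0.298 in animal 23004, STAB1 low at 30.1 in 21189, and DES high at 127.1 in 20261.

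At washout, animal 22130 was low for AADACL3 at 0.11 CPM and high for PDK4 at 469.2, PPARGC1A at 26.3 and ZAP70 at 18.2 (4.64 to 5.67 in the other 7). ABCG1 was low at 44.1 CPM in animal 20261, PABPC1 at 200.9 in 24849 and ATF5 at 58.4 in 21189.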

How the results depend on the processing

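The number of DE genes lay between 3655 and 4989 under every alternative that kept all animals or left out 1, against 4731. Leaving out each animal in turn gave 4008 to 4799. The 3 animals with both libraries in the last identifier series gave 1654, and this fit held fewer libraries. Animals were paired by their number, and the fit with no animal block gave 3965 DE genes, while the 16 paired libraries alone gave 3655. Of 183 named genes, 172 were DE, and 157 of these kept the call in every fit without 1 animal that tested them. With the identifier series as a covariate 164 of the 172 were DE. In the 3 last-series animals the 172 had the same direction and 115 were DE. Both of these fits shared libraries with the fit that gave the calls.

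The genes whose sign changed were UCP1, at -0.72 in the 3 last-series animals, and 3 genes near 0 that were not called under those alternatives. FGF21 was at 0.06 by DESeq2, 0.29 by limma, 0.02 by an earlier edgeR method chosen after seeing the data, and -0.21 to 0.27 when animals were left out (0.03 without 21866). KLB was at -0.08 by limma, -0.20 with the series as a covariate, -0.26 in the last-series animals, and -0.06 to 0.29 when animals were left out (-0.04 without 24849). FGFR1 was at 0.06 with library size alone, 0.02 in paired libraries and with the series, 0.09 in the last-series animals, and -0.11 to 0.06 when animals were left out (0.01 without 20456). The cause was not tested. Medians of 57 lists were compared over 1139 alternative values, and 3 moved by more than 1 SD of the change per animal: -0.26 for the FGF21 receptor list in the last-series animals, -0.71 for B and plasma cells at 10 or more counts in every library, and -0.36 for the IGF and TGF-beta list without animal 20261. The sign of the median changed under some alternative for 24 lists, 10 of them among the 41 with a median of 0.1 or more in size. In 4 both values were 0.1 or more in size: B and plasma cells, immediate early genes (-0.19 to 0.15 in the last-series animals), Schwann cells (0.28 to -0.18 without 20275) and epithelium (0.39 to -0.12 without 21866). Cholesterol synthesis went from 0.48 to 0.10 in the last-series animals. The epithelial list had no gene left at 10 or more counts in every library.

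The correction for gene length and GC content was not run, since no table used here gives GC content. The samples carry no untreated animals over the same weeks. The edgeR p-values come from the fit of all 27 AT libraries, in which 8 animals had both a post-treatment and a washout library. Low genes such as MOGAT1, RNF43, TAT, EPCAM, UCP1, FOXN4, AADACL3 and VEPH1 rest on few counts, so that their fold changes can turn on a few reads.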
